A study of Mus musculus with 13 samples.

Results

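Arterial endothelial cells line the vessels that bring blood into a tissue, and they were studied here in 2 droplet single-cell RNA libraries of mononuclear cells from the hindlimb muscle of uninjured C57BL/6 wild-type mice aged 2 months. The libraries, labelled Uninjured_WT_1 and Uninjured_WT_2 and called library 1 and library 2 below, share 1 genotype, age and condition, so no treatment was compared. The same series holds 11 bulk RNA libraries of muscle stem cells and of smooth-muscle and mesenchymal-like cells, which hold no arterial group and were not analysed here. The labels do not say that the libraries came from separate animals, so the p-values here reflect variation among these samples alone, and that variation may be technical.

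The arterial cells were chosen from their own counts. A cell was taken as endothelial when it had UMIs (unique molecular identifiers, each marking 1 captured RNA molecule) of at least 2 of Pecam1, Cdh5, Cldn5, Egfl7 and Kdr. It was taken as arterial when it also had UMIs of at least 2 of Stmn2, Sema3g, Gja5 and Alpl, of at most 1 of Vwf, Selp and Lrg1, and none of Ptprc, the pan-leukocyte gene. The rule found 213 arterial cells among 3509 endothelial cells and 12441 cells in all. Library 1 gave 125 of its 1551 endothelial cells and library 2 gave 88 of its 1958. The other 3296 endothelial cells, 1426 in library 1 and 1870 in library 2, were the main comparison group. They were also divided into venous-gated cells, which had at least 2 of Vwf, Selp and Lrg1, at most 1 arterial gene and no Ptprc UMI (69 and 264 cells), and remaining cells without Ptprc UMIs that met neither gate (1275 and 1513 cells).

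In the mouse, arterial identity is set up by VEGF signalling and by the Notch pathway, in which the ligands Dll4, Jag1 and Jag2 on one cell activate Notch receptors on the next, and the receptors' targets include the repressors Hey1, Hey2 and Hes1. Arterial endothelium is known for the gap junction proteins connexin 37 (Gja4) and connexin 40 (Gja5), which pass electrical signals along the vessel, and for elastic matrix under the cells. Veins carry the nuclear receptor Nr2f2 and the receptor Ephb4 in place of ephrin-B2 (Efnb2), and muscle capillaries are specialised for fatty acid uptake.

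Counts were summed over the cells of a group in each library and are given as CPM, UMIs per 1000000 UMIs of that sum, always with library 1 first. The arterial sums held 375712 and 210040 UMIs, against 3330769 and 4046524 in the other endothelial cells. The median arterial cell had 2599 and 2146 UMIs, and the median other endothelial cell had 1947 and 1668.5. The arterial cells were thus the deeper of these groups in both libraries; the part of depth in the results was not tested beyond the depth window and the thinned counts given below. Both libraries used 53 of the same cell barcodes, and 3 arterial cells carried one of them. Scrublet, a doublet caller, marked 3 arterial cells in library 1 and 0 in library 2. It marked 0.0635% of all cells in library 2 and therefore had not worked there.

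The genes of the rule describe the group and were not tested. Stmn2, a microtubule regulator, stood at 708 and 662 CPM in the arterial cells, and Alpl, tissue-nonspecific alkaline phosphatase, at 413 and 519. Sema3g, a secreted semaphorin, stood at 213 and 309 CPM, and Gja5 at 101 and 243. The pair Stmn2 and Alpl with neither of the others was the most common combination, in 60 cells of library 1 (48%) and 29 of library 2 (33.0%). All 4 genes were found in 10 and 7 cells. Just inside the threshold lay 91 and 61 cells with 2 of the 4 genes, and just outside it lay 292 and 218 otherwise equal cells with 1.

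**Figure D1:**
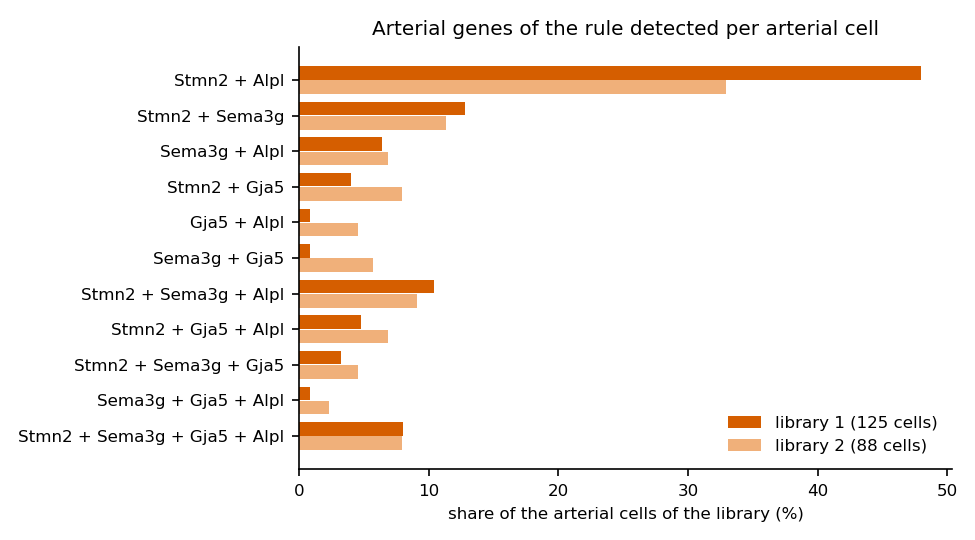
Share of the arterial cells of each library (horizontal axis, percent) with UMIs of each combination of Stmn2, Sema3g, Gja5 and Alpl (vertical axis). Dark bars are the 125 cells of library 1 and light bars the 88 cells of library 2; cells with Stmn2 and Alpl alone are the most frequent in both.

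Many arterial genes that the rule did not use were also higher. Their list was chosen with earlier results of these data known, so it is not an independent check of the label. Of 24 other arterial genes listed, 22 had enough UMIs to be tested. Of these, 17 were higher in the arterial cells than in the other endothelial cells, with none lower. The cells were chosen by arterial genes, so the direction of this list is in part fixed by that choice. Over all genes tested, 1.98% were higher. The median log2 fold change of the 22 was 1.21, against -0.08 over all genes. DESeq2, an alternative test, called 12 of the 22 higher, against 0.716% of all genes. Hey2 had no UMI in the arterial cells of either library (3 UMIs, the limit that a count of 0 allows, would be 7.98 and 14.3 CPM). Most of the other endothelial genes, such as Esam, Tie1, Flt1 and Erg, did not pass. Of 18 listed, 2 were higher (Mmrn2 and Icam2), 1 was lower (Emcn) and the median was 0.24. Over all genes, 1.98% were higher and 2.63% lower.

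Across the 10479 genes tested in arterial against other endothelial cells, 483 passed the threshold, an adjusted p under 0.05 in edgeR with the library as a block, which is 4.61%. Of these, 207 were higher (1.98%) and 276 lower (2.63%) in the arterial cells, and 480 went the same way in both libraries. The number rests on the pairing of the 2 groups within a library and on the tool: without the block 13 were higher and 11 lower, and with DESeq2 75 were higher (0.716%) and 61 lower (0.582%), 1.3% in all. Each group had 2 sums, the paired fit left 1 residual degree of freedom, and the spread of most genes was taken from the trend over all genes, so the standard errors of genes that differ between the libraries are too small. A gene that did not pass is not shown to be equal. With at least 3 of the 4 arterial genes required, which left 34 and 27 arterial cells, 89 genes were higher and 182 lower, and the median log2 fold change of all genes moved from -0.08 to -0.31.

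**Figure D2:**
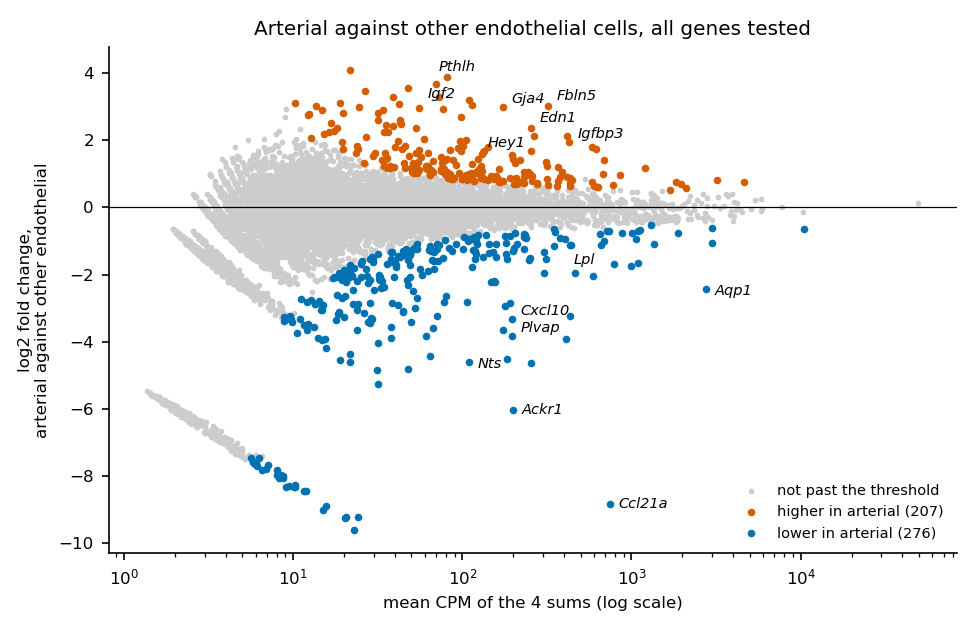
Log2 fold change of arterial against other endothelial cells (vertical axis) by the mean CPM of the 4 sums (horizontal axis, log scale), 1 point per gene tested. The 207 genes past the threshold and higher in arterial cells are orange and the 276 lower are blue; the band at the lower left is genes with no UMI in the arterial cells, whose fitted fold has no meaning as a size.

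Gja4 and Fbln5 had the lowest adjusted p of the arterial list. Gja4 stood at 192 and 428 CPM in the arterial cells of libraries 1 and 2 and at 22.2 and 52.6 in the other endothelial cells (log2 fold change 3.0, SE 0.25, adjusted p = 6.9e-31). Fbln5, fibulin-5, which organises elastic fibres, stood at 514 and 633 against 65.2 and 71.4 (log2 fold change 3.01, SE 0.22, adjusted p = 1.6e-40). They were 7.99-fold and 8.04-fold higher in the arterial cells, and both arterial values lay above both values of the other group. Fbln5 was one of 19 genes, 9 higher and 10 lower, that passed in the main fit and in all 11 alternatives, the fit without the block included. Edn1, Igfbp3, Vegfc, Col8a1, St8sia6 and Eps8l2 were also among the 9. Gja4 passed in every alternative that kept the library block.

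Among the called genes named in this report, none of which is a gene of the rule, several that encode secreted signals were higher in the arterial cells. Others, given further below, were lower. Edn1, the precursor of the vasoconstrictor endothelin-1, stood at 506 and 357 CPM against 89.8 and 72.7 (log2 fold change 2.35, SE 0.22, adjusted p = 8.2e-24). Vegfc, a VEGF family ligand best known for lymphatic growth, stood at 184 and 157 against 26.7 and 24 (log2 fold change 2.70, SE 0.27, adjusted p = 4.5e-20). Igfbp3, an insulin-like growth factor binding protein, stood at 591 and 776 against 182 and 157 (log2 fold change 1.94, SE 0.20, adjusted p = 9.6e-20). In each of the 3 genes, both arterial values lay above both values of the other endothelial cells. Igf2, a growth factor, stood at 287 and 109.5 against 30.3 and 11.6 (log2 fold change 3.20, SE 0.28, adjusted p = 1.1e-27). Pthlh, parathyroid hormone-like hormone, which relaxes vascular smooth muscle, had the largest fold increase among called genes with at least 50 CPM in both arterial sums, 58.6 and 248 against 3.9 and 15.3 CPM (log2 fold change 3.89, SE 0.33, adjusted p = 3.1e-28). Its arterial level was far higher in library 2, and in both libraries it was above the other endothelial cells.

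Of 18 Notch pathway genes tested, 4 were higher and 1 was lower in the arterial cells, with a median of 0.38. DESeq2 called 1 of them, Hey1. Over all genes tested, 1.98% were higher and 2.63% lower. The 4 higher genes, Hey1, Dll4, Jag1 and Notch4, all belong to the arterial list as well. The 22 gene lists hold 357 entries of 301 distinct genes, so a gene can be counted in more than 1 list. Hey1 stood at 237 and 157 CPM against 68.8 and 56.8 (log2 fold change 1.60, SE 0.25, adjusted p = 1.7e-08). Among ligands, Dll4 stood at 205 and 152 against 112 and 55.4 (log2 fold change 1.07, SE 0.25, adjusted p = 0.00082) and Jag1 at 95.8 and 138 against 41.1 and 41.8 (log2 fold change 1.41, SE 0.28, adjusted p = 5e-05). The receptor Notch4 was higher as well, with a log2 fold change of 1.19 (SE 0.36) and an adjusted p of 0.025. Hes1, another target gene of the pathway, went the other way, at 1006 and 219 CPM against 1134 and 571 (log2 fold change -0.71, SE 0.19, adjusted p = 0.0074). The fold difference of Hes1 was far smaller in library 1 than in library 2. The difference for Notch1 did not pass (log2 fold change 0.71, SE 0.23, adjusted p = 0.056). The calls of Dll4, Jag1 and Notch4 were lost when at least 3 arterial genes were required, and that of Hes1 when both groups were limited to cells of 2000 to 6000 UMIs.

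Of 18 vascular tone and shear response genes tested, 2 were higher and 4 lower, against 1.98% and 2.63% of all genes. Ace, the angiotensin-converting enzyme, stood at 125 and 195 CPM against 39.6 and 45 (log2 fold change 1.83, SE 0.26, adjusted p = 5.8e-10), and Edn1 is given above. The lower genes were Aqp1, Ptgs1, Calcrl and Adm. Aqp1, a water channel of capillary endothelium, stood at 1464 and 467 CPM in the arterial cells against 5872 and 3291 (log2 fold change -2.42, SE 0.17, adjusted p = 8.9e-41), and was 5.35-fold lower. Ptgs1, cyclooxygenase-1, had 3 UMIs in the arterial cells, and its pooled level was lower by a factor of 8.36 (95% counting interval 2.84 to 40.8), a call lost with at least 3 arterial genes required. Calcrl, the receptor subunit for adrenomedullin and calcitonin gene-related peptide, and Adm, adrenomedullin, had log2 fold changes of -1.42 (SE 0.37) and -1.33 (SE 0.34), with adjusted p of 0.0047 and 0.0036. Nos3, endothelial nitric oxide synthase, and Klf2, a flow-responsive transcription factor, did not pass, with 95% intervals of -0.01 to 1.04 and -0.05 to 0.58 on the log2 scale.

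Of 21 genes of basement membrane and elastic matrix, 6 were higher and 2 lower, with a median of -0.23. Over all genes, 1.98% were higher and 2.63% lower. The 6 were Fbln5, Fbln2, Eln, Fn1, Mgp and Ltbp4, most of which are known for elastic fibres or fibronectin matrix; the call of Mgp was lost under both other gene filters, without Scrublet doublets and with at least 3 of the 5 endothelial genes required. Eln, elastin, stood at 122 and 329 CPM against 49.2 and 64.5 (log2 fold change 1.80, SE 0.25, adjusted p = 7.3e-11), and Fn1, fibronectin, at 205 and 390.4 against 68.8 and 125 (log2 fold change 1.55, SE 0.23, adjusted p = 1.9e-09). Fbln2 stood at 495 and 543 against 260.3 and 179 (log2 fold change 1.20, SE 0.20, adjusted p = 2.7e-07). The 2 lower genes encode basement membrane chains, Col4a2 (log2 fold change -0.92, SE 0.23, adjusted p = 0.0024) and Lamb1 (log2 fold change -1.93, SE 0.55, adjusted p = 0.012). Outside the list, Col8a1, a short-chain collagen of vessel walls, stood at 221 and 186 against 23.7 and 24.2 CPM (log2 fold change 3.04, SE 0.26, adjusted p = 1.4e-27).

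Of 24 endothelial transcription factors tested, 5 were higher (Hey1, Mecom, Epas1, Lmo2 and Prdm16) and 1 was lower (Nr2f2). The shares over all genes were 1.98% higher and 2.63% lower. Epas1, hypoxia-inducible factor 2-alpha, stood at 868 and 609 CPM against 536 and 317 (log2 fold change 0.76, SE 0.19, adjusted p = 0.0021). Prdm16 stood at 122 and 47.6 against 56.1 and 20.3 (log2 fold change 1.13, SE 0.32, adjusted p = 0.011). Nr2f2, the venous regulator, had no UMI in the arterial cells of library 2 and stood at 31.9 CPM in library 1, against 54 and 67.5 in the other endothelial cells (log2 fold change -1.62, SE 0.42, adjusted p = 0.0043). The call of Lmo2 rests on library 2: the log2 ratio in library 1 alone was -0.02. Sox17, often used as an arterial marker, did not pass (833 and 495 against 781 and 586 CPM, log2 fold change -0.11, SE 0.18, adjusted p = 0.92). In the TGF-beta and BMP list, 5 of 17 genes were higher and none was lower, among them the receptor Acvrl1 at 322 and 348 against 178 and 133 CPM (log2 fold change 1.05, SE 0.22, adjusted p = 6.4e-05) and the inhibitor Smad6 (log2 fold change 1.33, SE 0.33, adjusted p = 0.0023). With at least 3 arterial genes required, the calls of Epas1, Prdm16, Acvrl1 and Smad6 were lost.

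Capillary genes were lower only in part. Of 18 genes tested, 5 were lower and 1 was higher, with a median of -0.35. Over all genes, 2.63% were lower and 1.98% higher. Lpl, lipoprotein lipase, stood at 442 and 129 CPM in the arterial cells against 796 and 359 (log2 fold change -1.12, SE 0.21, adjusted p = 7.3e-06). Its endothelial anchor Gpihbp1 stood at 769 and 219 against 1174 and 430.5 (log2 fold change -0.80, SE 0.19, adjusted p = 0.0015). Timp4, an inhibitor of metalloproteinases, stood at 449.8 and 133 against 847 and 336 (log2 fold change -1.11, SE 0.21, adjusted p = 1e-05). Car4, a carbonic anhydrase, and Slc28a2, a nucleoside transporter, completed the 5, with log2 fold changes of -1.10 (SE 0.27) and -1.59 (SE 0.34). In the 2000 to 6000 UMI window the calls of Car4, Gpihbp1 and Slc28a2 were lost. The higher gene was Btnl9 (log2 fold change 1.24, SE 0.32, adjusted p = 0.0037), a call lost with at least 3 arterial genes required.

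The most abundant fatty acid transport genes of muscle capillaries were plentiful in the arterial cells and did not pass. Fabp4, a fatty acid binding protein, stood at 14173 and 6389 CPM against 13473 and 7444, with a 95% interval of -0.41 to 0.16 for the log2 fold change. Cd36, the fatty acid translocase, stood at 1807 and 871 against 1773 and 1004, with an interval of -0.47 to 0.20. Of 15 fatty acid handling genes tested, 2 were lower (Lpl and Gpihbp1) and none was higher. Both are also in the capillary list, and 2.63% of all genes were lower.

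Of 16 venous genes, 9 were lower in the arterial than in the other endothelial cells (2.63% over all genes) and none was higher. Their median was -1.03. The rule caps Vwf, Selp and Lrg1 in the arterial cells alone, and the other endothelial cells keep the venous-gated ones, so this direction is not independent of the choice of cells. Against the remaining cells, 5 of 16 were lower (1.93% over all genes in that comparison) and 1 was higher (2.25%). The median was -0.95 (-0.47 with the genes at 0 set to their bounds). Summed over the list, the arterial cells had 1424 and 5289 CPM, the other endothelial cells 2260.1 and 4934 and the remaining cells 1629 and 3143, so the sum was higher in the arterial cells of library 2, where Icam1 stood at 580.2 and 2647 and Vcam1 at 77.2 and 1514 CPM in libraries 1 and 2. Plvap, which forms the diaphragms of fenestrae and caveolae, stood at 13.3 and 42.8 CPM against 224 and 507 (log2 fold change -3.84, SE 0.32, adjusted p = 1.8e-29). Ackr1, a chemokine receptor of venules, had 0 and 3 UMIs, and its pooled level was lower by a factor of 81.7 (95% counting interval 27.9 to 396). Sele, E-selectin, had no UMI, and was at least 8.1-fold lower against a floor of 3 UMIs over both libraries. Nrp2, a semaphorin and VEGF-C co-receptor of veins and lymphatics, stood at 101 and 71.4 against 203 and 229 (log2 fold change -1.32, SE 0.26, adjusted p = 3.4e-05). Of 8 lymphatic genes, 6 were lower, with a median of -4.71 (-3.43 with the gene at 0 set to its bound). At least 3 UMIs of the lymphatic list were found in only 4.70% and 7.81% of the other endothelial cells. Their median cell had 0 CPM of it in both libraries. The comparison group keeps these few cells, so the lymphatic values below describe group sums and not a typical endothelial cell. Ccl21a, a chemokine of lymphatic endothelium, had 1 UMI in the arterial cells of each library and 1806 and 1168 CPM in the other endothelial cells, lower by a factor of 427 (95% counting interval 118 to 3522). Nts, neurotensin, stood at 7.98 and 9.52 against 175 and 246 CPM (log2 fold change -4.59, SE 0.43, adjusted p = 3.9e-24).

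Cxcl10, an interferon-induced chemokine, stood at 10.6 and 71.4 CPM against 174 and 527 (log2 fold change -3.32, SE 0.31, adjusted p = 3.9e-24). Cxcl9, a related chemokine, had 3 UMIs in the arterial cells and was lower by a factor of 25 (95% counting interval 8.52 to 121). None of the 16 genes of the list for MHC class I and the interferon response passed in either direction (median 0.23). Ifit1, for example, stood at 186 and 557 against 179 and 542 CPM. Cx3cl1, fractalkine, which is membrane-bound, went the other way from Cxcl10, at 37.3 and 157 against 12.6 and 29.4 (log2 fold change 2.02, SE 0.34, adjusted p = 2.2e-07). In all, 2 of 12 chemokine and adhesion genes were higher (Cx3cl1 and Icam2) and 4 lower (Cxcl10, Ackr1, Sele and Ccl2). Over all genes, 1.98% were higher and 2.63% lower.

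The remaining lists of endothelial function held few calls. The shares over all genes were 1.98% higher and 2.63% lower. Of 13 genes of VEGF, angiopoietin and apelin signalling, 2 were higher (Vegfc and Dll4) and 3 lower (Nrp2, Aplnr and Angpt2). Of 16 ephrins, semaphorins and guidance receptors, Epha4 was higher and Nrp2 lower, and Efnb2 did not pass (log2 fold change 0.71, SE 0.27, adjusted p = 0.12). Of 10 junction genes, Gja4 was higher and Jam3 lower. The calls of Epha4, Jam3 and Angpt2 were lost with at least 3 arterial genes required. None of 17 immediate early and heat shock genes passed, with a median of 0.06.

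**Figure D3:**
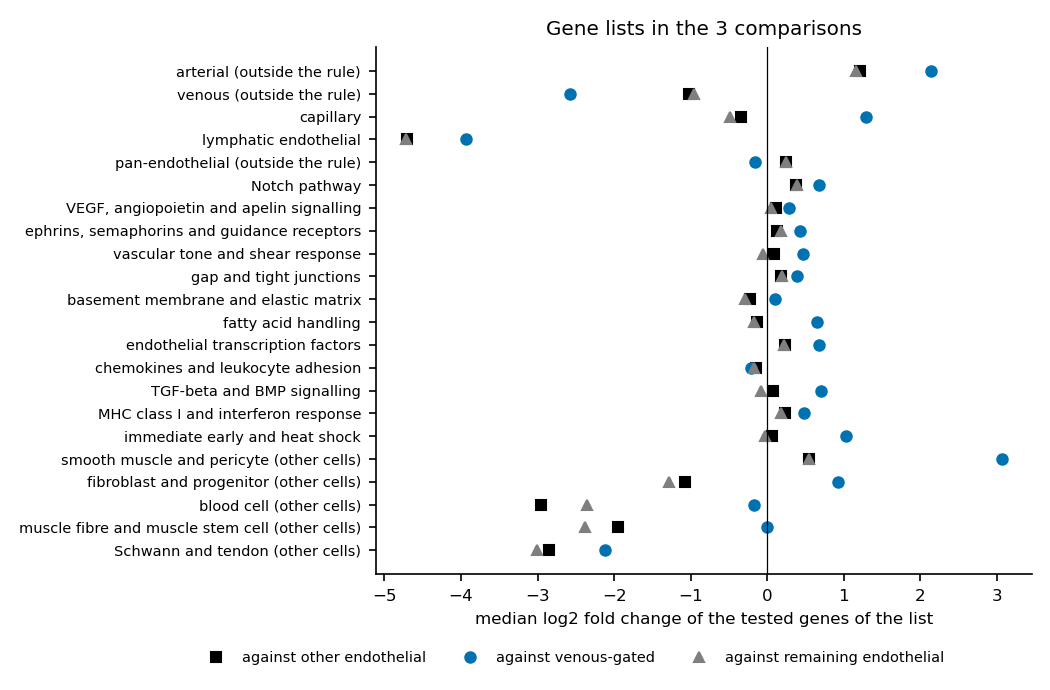
Median log2 fold change (horizontal axis) of the tested genes of each of the 22 lists (vertical axis) in the 3 comparisons; squares are arterial against all other endothelial cells, circles against venous-gated cells and triangles against remaining cells. The arterial list lies to the right in all 3 and the capillary list lies left of 0 against remaining cells and right of it against venous-gated cells.

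Many genes of other cell types were lower in the arterial cells. Fibroblast genes were lower for 6 of 12, blood cell genes for 11 of 14, muscle genes for 5 of 10 and Schwann and tendon genes for 5 of 9, and none of these was higher. Over all genes, 2.63% were lower. The 12 fibroblast genes summed to 1280 and 3580 CPM in the arterial cells and to 3296 and 6777 in the other endothelial cells. All 12 had UMIs in all of these sums. The cell shares went the other way: 31.2% and 39.8% of the deeper arterial cells had at least 3 UMIs of the list. In the other endothelial cells 22.4% and 37.1% did. Against venous-gated cells, 3 of the 12 fibroblast genes were higher (4.79% over all genes) and none was lower, with a median of 0.92. The 14 blood genes summed to 306 and 624 CPM against 2092 and 2394, with C1qb, Cd3e and Cd3d at 0 in both arterial sums. The rule bars Ptprc UMIs from the arterial cells, whereas the other endothelial cells keep 175 cells with one, so lower blood genes are in part fixed by the choice of cells. Against the remaining cells, which have no Ptprc UMI and summed to 1042 and 1760 CPM of the blood genes, 9 of 13 were lower (1.93% over all genes). Against venous-gated cells none was lower (5.24% over all genes) and Cd74 was higher (4.79% over all genes). Without Ptprc-positive cells in the comparison group, the log2 fold change of Lyz2 went from -3.64 to -2.25, that of Cd14 from -3.82 to -2.93 and that of Cd74 from -2.04 to -1.12, and each still passed. When cells with more than 2 UMIs of 5 fibroblast genes were left out of both groups, 151 genes were higher and 159 lower, and Dcn, Col1a1 and Fmod no longer passed, nor did Epas1, Prdm16, Lmo2, Icam2, Btnl9, Notch4, Epha4, Ccl2, Angpt2, Adm and Calcrl. This alternative was chosen after the data had been seen.

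Smooth muscle and pericyte genes, which mark the cells around an artery, were uneven between the libraries. Of 12 tested, 2, Rgs5 and Myh11, were higher in the arterial cells (median 0.54), against 1.98% of all genes. The 14 genes summed to 3173 CPM in the arterial cells of library 1 and to 671 in library 2, against 1465 and 906 in the other endothelial cells. Rgs5, a pericyte gene, stood at 1634 and 386 against 702 and 369 CPM (log2 fold change 0.66, SE 0.19, adjusted p = 0.013), and Myh11, smooth muscle myosin, at 74.5 and 0 against 20.4 and 9.88 (log2 fold change 1.32, SE 0.42, adjusted p = 0.042). Both calls were lost in the 2000 to 6000 UMI window. The arterial cells of library 2 had no UMI of Myh11, so that call rests on library 1. Cnn1 was at 0 in both arterial sums and Myh11 and Cspg4 in that of library 2. Without cells with UMIs of at least 2 of Acta2, Myh11, Tagln, Rgs5 and Pdgfrb, 217 genes were higher and 288 lower, and Rgs5, which the exclusion itself uses, went to -0.27; no other called gene named above turned in sign. The part of these cells in the other results was not tested further.

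Against venous-gated cells alone, 1023 of 10199 genes passed (10.0%), 489 higher (4.79%) and 534 lower (5.24%) in the arterial cells. With at least 3 arterial genes required, 244 were higher and 530 lower. Without the block 99 were higher and 101 lower, and DESeq2 called 210 (2.06%) and 252 (2.47%), 4.53% in all. Venous-gated cells were the deepest of the groups, with medians of 3571 and 3001 UMIs per cell. The gate genes aside, which were not tested, 10 of 16 venous genes were lower and none was higher, with a median of -2.57. Arterial cells had at most 1 and venous-gated cells at least 2 of Vwf, Selp and Lrg1. The direction of the venous list is thus in part fixed by the choice of cells. Ackr1 stood at 1499.9 and 2948 CPM in venous-gated cells, and its pooled level in arterial cells was lower by a factor of 508 (95% counting interval 174 to 2466). Plvap stood at 2140.4 and 1984 CPM against 13.3 and 42.8 in the arterial cells (log2 fold change -6.48, SE 0.29, adjusted p = 5.8e-104). Nr2f2 stood at 160.1 and 174 (log2 fold change -3.24, SE 0.40, adjusted p = 5.7e-14). Il6st, the shared receptor of the interleukin-6 family, stood at 820.2 and 821 CPM against 114 and 167 (log2 fold change -2.67, SE 0.24, adjusted p = 8.8e-25). Ephb4, the textbook venous partner of Efnb2, stood at 71.9 and 19 CPM in arterial and 66.4 and 23.2 in venous-gated cells, and did not pass (log2 fold change 0.12, SE 0.42, adjusted p = 0.94).

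Of 22 arterial genes, 16 were higher than in venous-gated cells, with a median of 2.14. Over all genes, 4.79% were higher. Venous-gated cells had at most 1 arterial gene of the rule, so the direction of the arterial list is in part fixed by the choice of cells. Hey1 stood at 15.6 and 7.32 CPM in venous-gated cells (log2 fold change 4.19, SE 0.41, adjusted p = 6.9e-22) and Dll4 at 11.7 and 7.32 (log2 fold change 4.10, SE 0.42, adjusted p = 8.8e-20), each far below the arterial values given above. Sox17 stood at 258 and 190.3 CPM against 833 and 495 (log2 fold change 1.45, SE 0.22, adjusted p = 2.4e-09). Cxcl12, a chemokine, stood at 227 and 91.5 against 1280.2 and 514 (log2 fold change 2.40, SE 0.22, adjusted p = 3.4e-24). Efnb2 had a log2 fold change of 1.68 (SE 0.35), with an adjusted p of 5e-05. Of 18 Notch genes, 7 were higher and none was lower. Tm4sf1 was the 1 arterial gene that went the other way, at 3796 and 7969.9 CPM in arterial and 9085 and 9574 in venous-gated cells (log2 fold change -0.87, SE 0.16, adjusted p = 1e-06). Summed over the arterial list, arterial cells had 11953 and 17435 CPM and venous-gated cells 13889 and 12850.5. The sum was thus lower in the arterial cells of library 1. The differences for Clu (log2 fold change 0.03, SE 0.35, adjusted p = 0.98) and Jag1 (log2 fold change 0.75, SE 0.33, adjusted p = 0.15) did not pass, with 95% intervals of -0.73 to 0.79 and 0.10 to 1.40 on the log2 scale.

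Capillary genes were higher in arterial than in venous-gated cells. Of 18, 12 were higher in the arterial cells (4.79% over all genes) and none was lower, with a median of 1.29. Tcf15, a transcription factor of fatty acid uptake, stood at 644 and 314 CPM against 137 and 65.9 (log2 fold change 2.16, SE 0.25, adjusted p = 4.5e-16). Aqp7, a glycerol channel, stood at 322 and 171 against 31.2 and 25.6 (log2 fold change 2.88, SE 0.32, adjusted p = 5e-17). Timp4 stood at 58.6 and 19.5 CPM in venous-gated cells (log2 fold change 2.82, SE 0.29, adjusted p = 4e-19) and Lpl at 43 and 43.9 (log2 fold change 2.31, SE 0.28, adjusted p = 4.1e-14). Btnl9 was nearly absent there, at 0 and 3.66 CPM (log2 fold change 4.49, SE 0.62, adjusted p = 6.3e-11). Fabp4 stood at 12073 and 7292 CPM and did not pass. Aqp1 ran against the rest, being lower in the arterial than in the venous-gated cells too (log2 fold change -2.05, SE 0.35, adjusted p = 0.0046), although this call was lost without cells with smooth muscle or pericyte UMIs, with a minimum of 50 UMIs in each library, with at least 3 of the 5 endothelial genes required and without the block.

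The stress and early response genes also separated arterial from venous-gated cells. Of 17, 15 were higher in the arterial cells (4.79% over all genes) and none was lower, with a median of 1.03. Hspa1a, an inducible heat shock protein, stood at 12723 and 3247 CPM in arterial, 1375 and 594 in venous-gated and 12974 and 4230.0 in remaining endothelial cells (log2 fold change 2.73, SE 0.17, adjusted p = 8.4e-56 against venous-gated cells). Fos stood at 4136 and 1481, 1422 and 842 and 3568 and 1759.9 (log2 fold change 1.09, SE 0.18, adjusted p = 5e-08, lost with at least 3 arterial genes required). Klf2 stood at 4341 and 1581, 1195 and 403 and 4656 and 1244 (log2 fold change 1.81, SE 0.18, adjusted p = 4.1e-21). These genes respond to tissue dissociation, and the part of that step in their levels was not tested. In the smooth muscle and pericyte list, 8 of 12 genes were higher and Tagln was lower in arterial than in venous-gated cells. The list summed to 3173 and 671 CPM in arterial cells and to 621 in each library of venous-gated cells, so the sums were close in library 2. At least 3 UMIs of the list were found in 19.2% and 7.95% of arterial cells, against 29.0% and 19.7% of the deeper venous-gated cells.

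**Figure D4:**
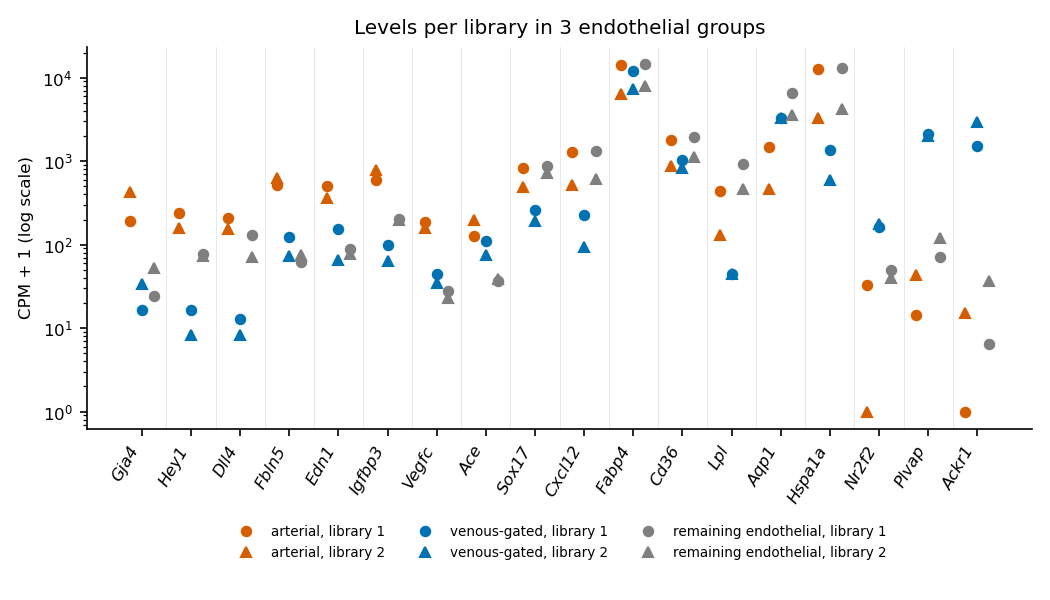
CPM plus 1 (vertical axis, log scale) of 18 genes (horizontal axis) in arterial (orange), venous-gated (blue) and remaining endothelial cells (grey). Circles are library 1 and triangles library 2, and a point at 1 is a gene with no UMI. Gja4, Fbln5 and Igfbp3 are highest in arterial cells of both libraries, Sox17, Cxcl12 and Hspa1a are near the remaining cells and above venous-gated cells, and Aqp1 is lowest in arterial cells.

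Against the remaining endothelial cells, 426 of 10199 genes passed (4.18%), 229 higher (2.25%) and 197 lower (1.93%). With at least 3 arterial genes required, 128 were higher and 250 lower. Without the block 18 were higher and 6 lower, and DESeq2 called 87 (0.853%) and 50 (0.49%), 1.34% in all. This comparison shares its arterial sums with the venous one, so the values are given side by side and no overlap is drawn. Of 22 arterial genes, 15 were higher (median 1.16). Remaining cells met neither gate, so the direction of the arterial list is in part fixed by the choice of cells here too. Gja4 stood at 23.4 and 51.1 CPM in the remaining cells (log2 fold change 3.04, SE 0.26, adjusted p = 9.3e-29) and Fbln5 at 61.7 and 73.5 (log2 fold change 3.07, SE 0.24, adjusted p = 2.7e-35). Ace stood at 35.8 and 38.1 (log2 fold change 2.06, SE 0.27, adjusted p = 1.6e-11). Lpl stood at 926 and 465 CPM (log2 fold change -1.33, SE 0.22, adjusted p = 4.4e-07) and Timp4 at 970.0 and 449 (log2 fold change -1.37, SE 0.23, adjusted p = 2.1e-07), both above the arterial values. Of 18 capillary genes, 6 were lower and Btnl9 was higher.

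A few genes placed arterial cells between the other groups or beside the venous ones. Slco2a1, a prostaglandin transporter listed as venous, stood at 18.6 and 138 CPM in arterial, 406 and 447 in venous-gated and 9.49 and 23.2 in remaining cells. It was lower than in venous-gated cells (log2 fold change -2.85, SE 0.29, adjusted p = 1.8e-18) and higher than in remaining cells (log2 fold change 2.04, SE 0.34, adjusted p = 6.9e-07), the last call being lost with at least 3 of the 5 endothelial genes required or with a minimum of 50 UMIs. Hs3st1, a heparan sulfate sulfotransferase, stood at 130.4 and 514, 328 and 638 and 22.3 and 65 (log2 fold change 2.78, SE 0.25, adjusted p = 5e-26 against remaining cells). Tm4sf1 had the same order, with a log2 fold change of 1.21 (SE 0.16) against remaining cells (adjusted p = 2.3e-12).

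Levels were also read by how many of the 4 arterial genes a cell had, among cells otherwise equal under the rule. These steps rest on detection and so move with depth: the median cell had 1814, 1972, 2428 and 3390.5 UMIs at 0, 1, 2 and 3 or 4 genes in library 1, and 1486.5, 1632.5, 2099 and 2473 in library 2. Fbln5 stood at 32.3, 148, 275 and 993 CPM in library 1 and at 52.1, 177, 400.2 and 1074 in library 2. Aqp1 stood at 7222, 4373, 2085 and 216 CPM in library 1 and at 3761, 2349, 393 and 606 in library 2. Lpl stood at 942, 885, 538 and 248 and at 468, 478, 182 and 27.5. Fbln5 was thus higher at each step in both libraries, and Aqp1 lower at each step in library 1 and up to 2 genes in library 2. Fabp4 showed no such order, at 14310.1, 14795, 14527 and 13462 CPM in library 1 and 7789.6, 9145, 6629.6 and 5935 in library 2. Cells with 1 arterial gene, which belong to the comparison group, held intermediate levels of Fbln5, Gja4 and Igfbp3 in both libraries.

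**Figure D5:**
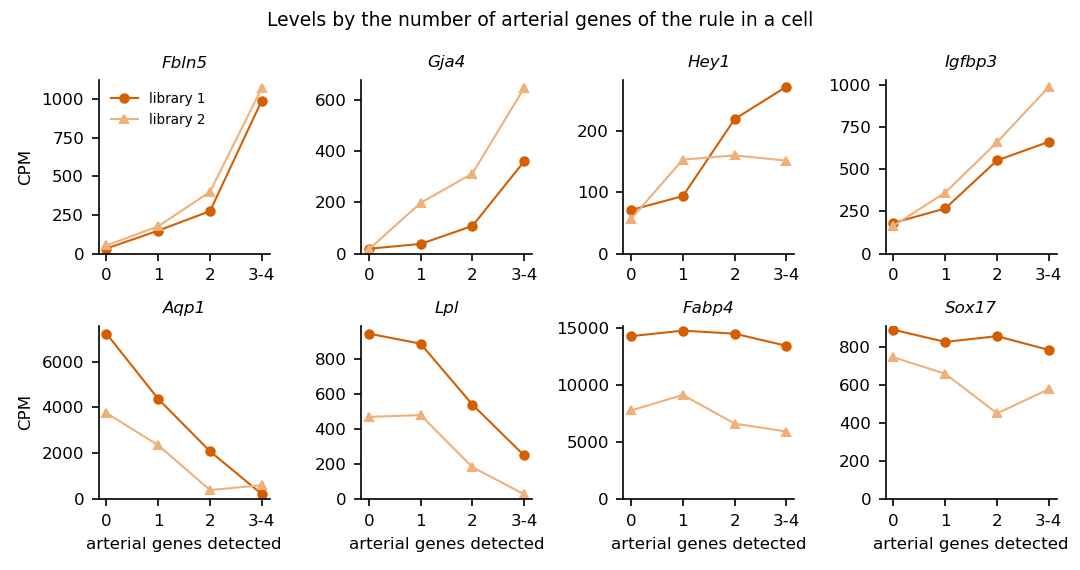
CPM (vertical axis, from 0) of 8 genes by the number of arterial genes of the rule detected in a cell (horizontal axis); dark circles are library 1 and light triangles library 2, 1 sum of cells per point. Fbln5, Gja4 and Igfbp3 climb over the steps in both libraries, Lpl ends lowest at 3 or 4 genes, and Fabp4 and Sox17 show no steady climb.

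The arterial cells were also summed by the genes of the rule they held, as a description with no test. In library 1, the 60 cells with Stmn2 and Alpl alone had 2520 CPM of Aqp1, 631 of Lpl and 215 of Fbln5. The 28 with Gja5 had 53.0, 95.4 and 1113. In library 2 the 29 cells with Stmn2 and Alpl alone had 566 CPM of Aqp1, 97.1 of Lpl and 275 of Fbln5, and the 35 cells with Gja5 had 646, 208 and 734. Fbln5 was higher with Gja5 in both libraries, whereas Aqp1 and Lpl were lower with it in library 1 and higher in library 2.

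The arterial cells of the 2 libraries were not alike. Vcam1, a leukocyte adhesion molecule, stood at 77.2 and 1514 CPM, Mgp, matrix Gla protein, at 442 and 3238, Gkn3 at 34.6 and 229, Bmx, a kinase of arterial endothelium, at 16 and 129 and Clu, clusterin, at 540.3 and 1319. All 5 were higher in library 2. Cxcl12, at 1280.2 and 514 CPM, and Hspa1a, at 12723 and 3247, were higher in library 1. In the other endothelial cells Vcam1 stood at 113 and 434, Mgp at 374 and 763 and Clu at 185 and 295, also higher in library 2, while Bmx stood at 4.8 and 7.17. The difference between 2 single libraries has no replicate and no test. Gkn3 (log2 fold change 3.67, SE 0.36, adjusted p = 5.5e-22), Bmx (log2 fold change 3.29, SE 0.47, adjusted p = 7.7e-10) and Clu (log2 fold change 1.80, SE 0.19, adjusted p = 1.5e-18) were nonetheless higher in arterial than in other endothelial cells in both libraries, although the call of Bmx was lost with at least 3 arterial genes required.

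Arterial cells made up 8.06% of the endothelial cells of library 1 (exact 95% binomial interval 6.75 to 9.53) and 4.49% of those of library 2 (3.62 to 5.51). The mean was 6.28% with an SD of 2.52 (n = 2 libraries). These intervals cover counting error only and did not overlap. When cells of at least 2000 UMIs were each thinned to 2000, which left 692 and 644 endothelial cells, the shares were 8.82% (6.81 to 11.2) and 7.61% (5.68 to 9.93), and the intervals overlapped. The venous-gated share was 4.45% and 13.5%, and it went the other way between the libraries. As shares of all cells, arterial cells made up 2.03% and 1.40%.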

How the data were processed

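The 2 single-cell libraries were analysed from UMI counts per gene and cell, which the authors deposited as filtered matrices without normalization. Per the submitters' processing notes, the tools named for the series include Cell Ranger 2.2.0, STAR 2.5.1b, R 3.5.1 and Seurat 2.3.4, with the build mm10; which step each served is not given in the sources used here. Cells were used as deposited, with no further filter, and no cell type annotation was used.

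Groups were gated on detected UMIs, and raw counts were summed per library and group. Genes with at least 10 UMIs in each library over the groups compared were tested with edgeR 4.0.16 (R 4.3.3; TMM scaling, quasi-likelihood test, library as block), with Benjamini-Hochberg adjustment over all tested genes and a threshold of 0.05. The block pairs groups taken from the same sample. The 13 genes of the rule were left out of the tests but not out of library totals. Arterial against other endothelial cells was 1 fit of 4 sums; the venous-gated and remaining groups shared a second fit of 6 sums. DESeq2 1.42.0 was an alternative. Shares have exact Clopper-Pearson intervals. A fold against arterial cells at 0 was set against a floor of 3 UMIs. The fits were tested on simulated data. Named genes were up to 4 called genes of lowest p from each list, called list genes going the other way, and the 10 largest increases and decreases among called genes with at least 50 CPM in the higher group of both libraries and 1 direction in both (no predicted, mitochondrial, haemoglobin or ribosomal protein genes). Members of the arterial, venous, capillary, Notch and other-cell lists could be named in any case. Ifit1, Mgp, Nos3, Klf2, Prdm16, Fos, Hs3st1 and other names given only as called or lost were chosen after their values were seen. The members and the gene lists were chosen with earlier results of these data known. All cells summed to 19353328 UMIs in library 1 and 15507938 in library 2. Alternatives changed the tool, block, gene filter, gates, depth window and the cells kept.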

Additional observations from a re-analysis of the deposited data

How the results depend on the processing

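The counts of called genes depended most on the library block and the tool. Without the block, that is without the pairing of groups within a library, 24 genes were called against other endothelial cells, 200 against venous-gated and 24 against remaining cells, in place of 483, 1023 and 426. DESeq2 called 136, 462 and 137. Against other endothelial cells, 271 were called with at least 3 of the 4 arterial genes and 310 without cells with stromal UMIs. Against remaining cells, 193 were called with at least 50 UMIs in each library and 268 with at least 3 of the 5 endothelial genes. The arterial share averaged 1.79% with at least 3 arterial genes, and single libraries gave 4.49 to 8.06%. The cause was not tested.

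Of the calls against other endothelial cells, 42.9% were higher, against 54.2% without the block, 55.2% with DESeq2 and 32.8% with at least 3 arterial genes. Against remaining cells these were 53.8%, 75%, 63.5% and 33.9%, and against venous-gated cells 47.8% became 31.5% with at least 3 arterial genes.

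Among 138 results for single genes, 182 values lost the call under an alternative, 78 of them without the block and 32 with DESeq2, 10 gained it and 18 turned in sign. The log2 CPM ratio of a single library, with no new fit, was also set against the fitted value. It lay off by at least the SD of the 2 ratios in 64 cases, 39 without library 1 and 25 without library 2. Ratios whose partner was undefined through a count of 0 are among them. That SD comes from the same 2 ratios, so the count does not measure how far a result rests on 1 library. In the 2000 to 6000 UMI window, the log2 fold changes turned to 0.38 for Sox17, 0.15 for Cd36 and 0.22 for Fabp4 against other endothelial cells, 0.057 for Fabp4 and -0.052 for Ephb4 against venous-gated cells, and 0.11 for Sox17 against remaining cells. Without cells with stromal UMIs they turned to -0.35 for Cxcl12 and -0.020 for Klf2 against other endothelial cells, and to 0.025 for Fabp4, -0.078 for Ephb4 and -0.075 for Clu against venous-gated cells. With at least 3 arterial genes Cxcl12 turned to -0.56 and Ephb4 to -1.40, with at least 3 endothelial genes Cxcl12 turned to -0.052, and with DESeq2 Ephb4 turned to -0.049 and Clu to -0.025. Rgs5 turned to -0.27 without cells with smooth muscle or pericyte UMIs, and Lmo2 was -0.022 without library 2 and 1.73 without library 1. Of these, only Rgs5 and Lmo2 had passed. The alternatives on stromal UMIs and on 3 endothelial genes were chosen after seeing the data. With 213 arterial cells, genes of few UMIs carry wide errors.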
